A study of Mus musculus with 23 samples.

Results

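Transcripts that mark regulatory T cells were followed in E0771 mammary tumors grown in mice of different weight histories. The genes were chosen by symbol and are Foxp3, Il2ra, Ctla4, Ikzf2, Ccr8, Tnfrsf4, Tnfrsf18 and Tnfrsf9, each to be read from the probe set with the highest mean signal. Of these 8 genes, 7 had a probe set with that symbol in the platform annotation, each had 1 probe set, and they were read among 19505 named genes. Foxp3, the defining transcription factor of the lineage, was not analysed here, so none of the values below identify a regulatory T cell by its defining gene. E0771 is a mouse triple-negative mammary cancer line, and it was injected into the fourth mammary fat pad of adult female C57BL/6NCrl mice 22 weeks after the mice had been assigned to diets. DIO-VSG mice (n = 6) were made obese on a high-fat diet (60% of calories from fat), then had vertical sleeve gastrectomy, the surgical removal of most of the lateral stomach, and ate a low-fat diet afterwards. DIO-LFD mice (n = 5) were made obese in the same way and lost weight by a change to the low-fat diet. DIO-HFD mice (n = 6) stayed on the high-fat diet, and CON-LFD mice (n = 6) ate the low-fat diet throughout and were never obese. The last 3 groups had a sham operation, and all 23 tumors came from separate mice that received the same cell line. The surgery group and the DIO-HFD group differ in both operation and diet, which cannot be told apart in that comparison. The sample labels contradict each other for 2 tumors: the source name places DIO-LFD replicate 1 in DIO-HFD and DIO-VSG replicate 1 in DIO-LFD. Here the titles decided. Many of the group differences and correlations that rest on these tumors are also given without them, and other values are given with them only.

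Regulatory T cells are CD4 T cells that restrain other lymphocytes and that collect in many tumors. They take up IL-2 through a receptor whose high-affinity chain is encoded by Il2ra (CD25), and they block co-stimulation through CTLA-4, which binds CD80 and CD86 on antigen-presenting cells. Ikzf2 encodes the transcription factor Helios, Ccr8 encodes a chemokine receptor that marks regulatory T cells within tumors, and Tnfrsf4 (OX40), Tnfrsf18 (GITR) and Tnfrsf9 (4-1BB) are co-stimulatory receptors of the TNF receptor family. None of these genes belongs to regulatory T cells alone, since activated conventional T cells also express Il2ra, Ctla4, Tnfrsf4, Tnfrsf18 and Tnfrsf9.

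All values are signals on the log2 scale from Mouse Clariom S HT arrays, on which a difference of 1 is a doubling, and signals of different genes are not compared because each probe set has its own brightness. The medians of the arrays lay between 6.13 and 6.5, and any pair of arrays correlated at 0.961 or more. Sensory receptor genes, which tumors do not use, served to describe background, and the 95th percentile of 1447 of them lay between 4.67 and 5.53 on the 23 arrays. Il2ra, Ctla4, Ikzf2 and Tnfrsf9 were above that percentile on all 23 arrays, Tnfrsf4 and Tnfrsf18 on 22 and Ccr8 on 21. Of the T cell genes used for comparison, Cd4 was above it on 23 arrays, Cd3e, a chain of the T cell receptor complex, on 22, and Cd8a, the co-receptor chain of cytotoxic T cells, on 21. Every one of these signals not above background lay on the arrays of DIO-HFD replicates 1 and 3, so the lowest values there are bounds rather than levels. They were Cd8a (3.67) and Ccr8 (4.70) on replicate 1, and Cd8a (4.69), Cd3e (5.08), Ccr8 (5.37), Tnfrsf4 (5.07) and Tnfrsf18 (4.64) on replicate 3. Results on DIO-HFD tumors are therefore also given without these 2 arrays, a setting chosen after the data were seen and by a low T cell signal, which is itself related to the values compared. The members differed in how far they varied among tumors. Tnfrsf18 ran from 4.64 to 10.30, Tnfrsf4 from 5.07 to 10.11, Ctla4 from 5.27 to 9.60 and Ccr8 from 4.70 to 8.42. Il2ra ran from 5.72 to 7.38, Ikzf2 from 10.39 to 12.20 and Tnfrsf9 from 10.11 to 13.31. Krt8 and Vim averaged 12.40 and 17.47, signals that bulk tumor RNA does not assign to a cell type. The epithelial genes Epcam and Krt14 averaged 4.61 and 4.09, below the low-signal limit of 4.77 (the 40th percentile of probe set means). Of the 10 tumor marker genes from which these were picked, 4 were above that limit.

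**Figure D1:**
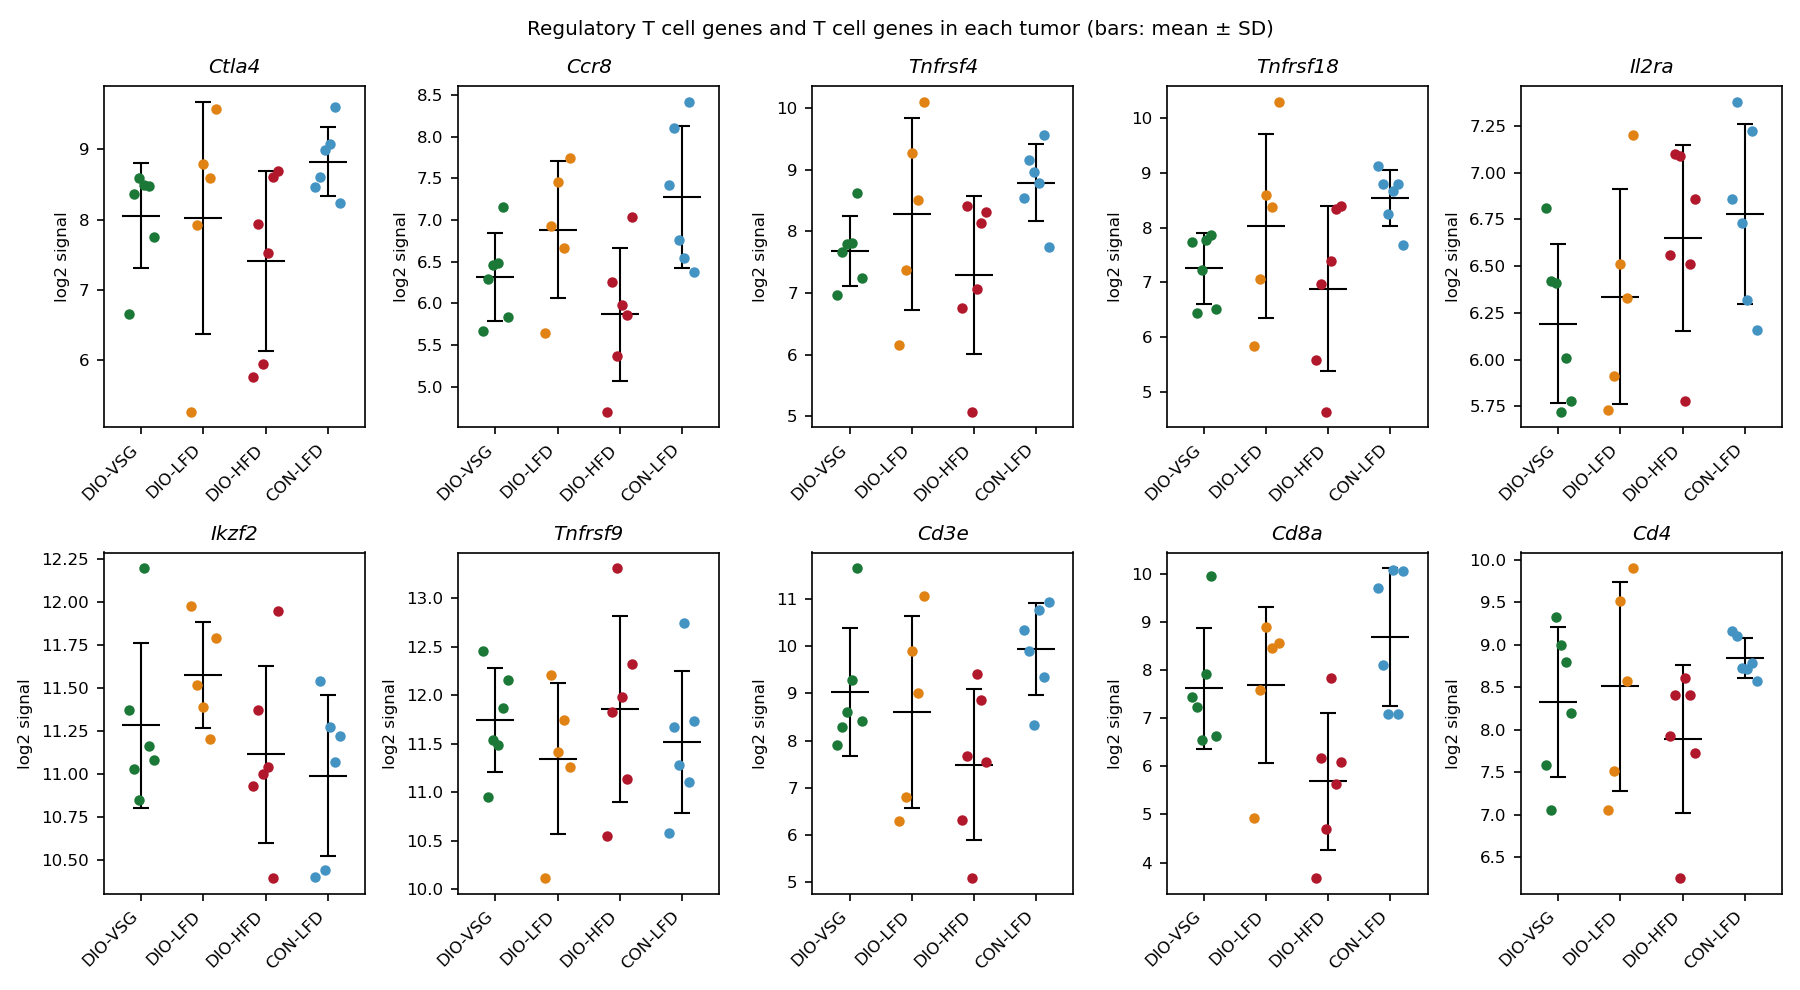
Log2 signal of the 7 measured members and of Cd3e, Cd8a and Cd4 in each tumor, by group on the horizontal axis, with 1 point per tumor and bars at the mean ± SD (n = 6, 5, 6 and 6). The groups overlap in every panel, and the DIO-HFD tumors have the lowest group mean for Ctla4, Ccr8, Tnfrsf4 and Tnfrsf18 but not for Il2ra, Ikzf2 or Tnfrsf9.

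The 7 members did not vary together as 1 block. After the group mean of each gene was removed, Ctla4, Ccr8, Tnfrsf4 and Tnfrsf18 varied together over the 23 tumors, with Pearson correlations between 0.68 (Ccr8 with Tnfrsf18) and 0.88 (Ctla4 with Tnfrsf4). These are descriptions, and every pair of genes was read from the same 23 arrays. Il2ra had correlations of 0.47 with Ccr8 and 0.40 with Tnfrsf4. The same 4 genes followed Cd3e, with 0.75 for Tnfrsf18, 0.69 for Tnfrsf4, 0.64 for Ctla4 and 0.48 for Ccr8 (Spearman 0.77, 0.58, 0.54 and 0.45). Of all genes, 1.17% had a correlation with Cd3e at or above that of Tnfrsf18, 2.13% at or above Tnfrsf4, 2.99% at or above Ctla4 and 8.12% at or above Ccr8. Ikzf2, Tnfrsf9 and Il2ra had correlations of 0.01, -0.00 and -0.05 with Cd3e. Correlations of the 4 genes with Cd8a were lower. They were 0.56 for Tnfrsf18, 0.49 for Ctla4, 0.41 for Tnfrsf4, 0.36 for Ccr8 and 0.36 for Tnfrsf9, and without the 2 tumors farthest from the median of Cd8a they were 0.44, 0.31, 0.19, 0.13 and 0.24. With Cd3e the same step gave 0.73, 0.62, 0.61 and 0.40. With Cd4 the correlations were 0.77 for Tnfrsf4, 0.75 for Tnfrsf18, 0.66 for Ctla4 and 0.50 for Ccr8, and without the 2 tumors farthest from the median of Cd4 they were 0.61, 0.59, 0.45 and 0.38, so no order of Cd3e and Cd4 is read from them. Without the 2 tumors whose labels disagree, correlations among the 4 genes ran from 0.65 to 0.86, and those with Cd3e were 0.74 for Tnfrsf18, 0.60 for Tnfrsf4, 0.53 for Ctla4 and 0.34 for Ccr8. Those with Cd8a were then 0.43 for Tnfrsf18, 0.28 for Ctla4, 0.21 for Tnfrsf4, 0.19 for Ccr8 and 0.21 for Tnfrsf9. Those with Cd4 were 0.69 for Tnfrsf4, 0.74 for Tnfrsf18, 0.50 for Ctla4 and 0.36 for Ccr8.

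**Figure D2:**
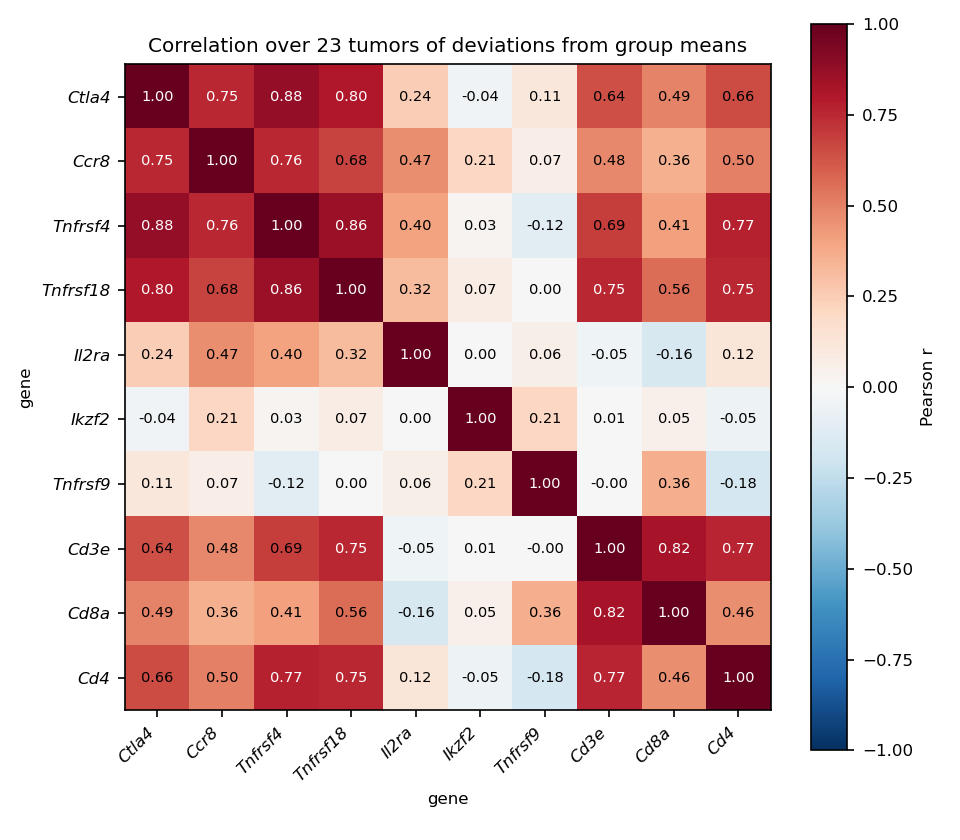
Pearson correlation of each pair of genes over 23 tumors, computed on deviations from group means and coloured from -1 to 1. Ctla4, Ccr8, Tnfrsf4 and Tnfrsf18 form a block between 0.68 and 0.88, while Tnfrsf9 has 0.36 with Cd8a and -0.00 with Cd3e.

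**Figure D3:**
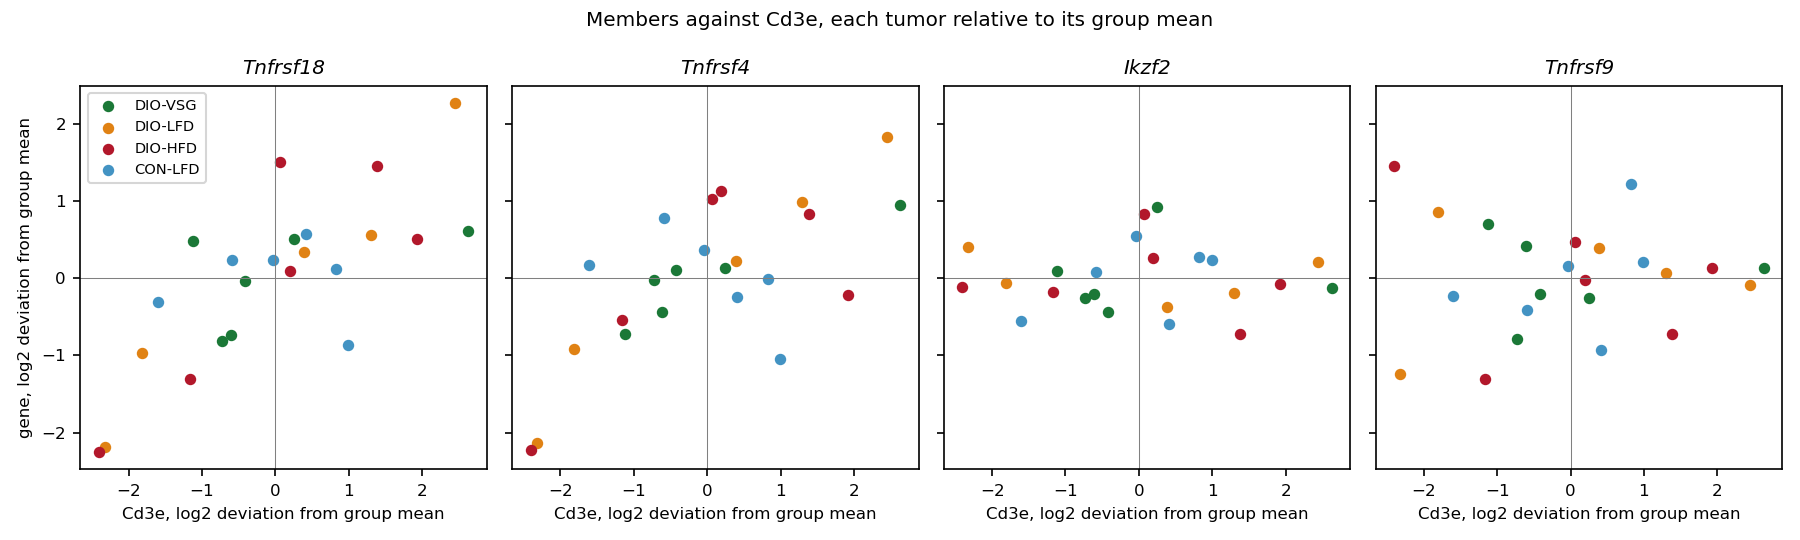
Deviation from the group mean (log2) of Tnfrsf18, Tnfrsf4, Ikzf2 and Tnfrsf9 on the vertical axis against that of Cd3e on the horizontal axis, 1 point per tumor coloured by group. Tnfrsf18 and Tnfrsf4 climb with Cd3e (0.75 and 0.69), and Ikzf2 and Tnfrsf9 do not (0.01 and -0.00).

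The genes whose deviations were most like those of each member differed in the same way. For Ctla4 they were Slamf6 (0.88), a T and natural killer cell surface receptor, Plbd1 (0.87) and Il10ra (0.86), the IL-10 receptor chain. For Tnfrsf18 they were Cd69 (0.88), an early activation marker of lymphocytes, Tspan13 (0.88) and H2-DMb2 (0.87), which helps load MHC class II. Tnfrsf4 was closest to Sema4d (0.86), Phf11a (0.85) and Gca (0.85), and Ccr8 to Phf11a (0.77), Oard1 (0.74) and Xcl1 (0.73), a chemokine of natural killer and cytotoxic T cells. Tnfrsf9 was closest to Pgk1 (0.91), an enzyme of glycolysis, Osbpl8 (0.78) and Plekha2 (0.78). Ikzf2 was closest to N4bp2l2 (0.80), Zfp931 (0.78) and Cep83 (0.77), and Il2ra to Omg (0.82), a myelin glycoprotein, Crtam (0.64) and Wdfy4 (0.63). Omg averaged 4.78, at the low-signal limit of 4.77 and within the background range of 4.67 to 5.53. Likeness was the Pearson correlation over 23 tumors among 11517 candidate genes, so some high values may arise from the number of candidates alone. Against the mean of 15 T cell identity genes, Tnfrsf18 had a correlation of 0.77, Ctla4 0.75, Tnfrsf4 0.72 and Ccr8 0.61, against 0.15 for Tnfrsf9, 0.11 for Il2ra and -0.00 for Ikzf2. Other lists gave the 4 genes correlations of 0.63 to 0.82 with the ligands of the members, 0.58 to 0.68 with dendritic cell genes and 0.35 to 0.60 with macrophage genes. With cytotoxic and natural killer cell genes they had 0.48 to 0.70, and with further genes of regulatory T cells 0.62 to 0.82. Tnfrsf9 ran against the skeletal muscle list (-0.51) and the lymph node stroma list (-0.58), and Ikzf2 ran with the neutrophil list (0.62).

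The promoters of the 4 genes that varied together are shown because these transcripts varied as a set, with those of Il2ra and Tnfrsf9, which did not follow Cd3e, for contrast. Each is the 250 bases before the gene start in RefSeq (GRCm38.p6), on the plus strand, and 6 of the 7 measured members had such a window. Capitals mark a match, on either strand, to 1 of 5 motifs: NFAT-type TGGAAA, STAT TTCNNNGAA, AP-1 TGANTCA, forkhead TGTTTAC and the NF-kappaB consensus.
Ctla4 (chr1:60908775-60909024): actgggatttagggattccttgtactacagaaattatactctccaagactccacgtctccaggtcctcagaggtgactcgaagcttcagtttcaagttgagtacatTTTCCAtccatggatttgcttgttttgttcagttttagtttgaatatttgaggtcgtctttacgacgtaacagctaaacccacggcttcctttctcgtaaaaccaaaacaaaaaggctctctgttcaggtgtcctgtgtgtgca
Ccr8 (chr9:120091883-120092132): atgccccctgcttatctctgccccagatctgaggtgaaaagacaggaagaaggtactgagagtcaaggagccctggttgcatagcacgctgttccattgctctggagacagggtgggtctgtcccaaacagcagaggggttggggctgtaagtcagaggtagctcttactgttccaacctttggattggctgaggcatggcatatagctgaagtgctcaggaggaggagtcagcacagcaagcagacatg
Tnfrsf4 (chr4:156013445-156013694): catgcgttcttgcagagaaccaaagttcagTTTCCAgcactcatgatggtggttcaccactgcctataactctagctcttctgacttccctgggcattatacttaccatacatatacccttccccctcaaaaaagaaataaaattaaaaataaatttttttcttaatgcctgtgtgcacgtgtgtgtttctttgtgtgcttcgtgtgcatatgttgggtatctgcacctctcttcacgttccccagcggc
Tnfrsf18 (chr4:156026072-156026321): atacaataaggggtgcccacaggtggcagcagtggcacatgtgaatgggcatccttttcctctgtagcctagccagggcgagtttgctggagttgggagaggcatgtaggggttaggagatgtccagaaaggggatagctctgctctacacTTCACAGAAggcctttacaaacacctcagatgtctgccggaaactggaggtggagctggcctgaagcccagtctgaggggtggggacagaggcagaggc
Il2ra (chr2:11642542-11642791): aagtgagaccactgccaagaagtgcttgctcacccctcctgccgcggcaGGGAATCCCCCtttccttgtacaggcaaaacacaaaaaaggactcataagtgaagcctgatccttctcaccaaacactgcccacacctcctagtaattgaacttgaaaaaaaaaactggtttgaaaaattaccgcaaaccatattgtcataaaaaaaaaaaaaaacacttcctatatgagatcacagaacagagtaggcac
Tnfrsf9, second start (chr4:150927749-150927998): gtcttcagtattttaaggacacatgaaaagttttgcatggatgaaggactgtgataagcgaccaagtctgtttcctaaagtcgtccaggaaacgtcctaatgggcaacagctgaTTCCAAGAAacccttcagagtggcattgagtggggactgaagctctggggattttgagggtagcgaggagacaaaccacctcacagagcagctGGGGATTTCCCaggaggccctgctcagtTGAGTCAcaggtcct

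The 4 co-varying genes shared no motif of the 5 across their windows. Ctla4 and Tnfrsf4 each held 1 NFAT-type match, read as TTTCCA, whose first base lay 144 and 220 bases before the start. Tnfrsf18 held 1 STAT match (TTCACAGAA, 99 bases before the start), and the Ccr8 window held no match. Of the contrast genes, Il2ra had a pair of overlapping NF-kappaB consensus matches beginning 201 and 200 bases before the start, and the second Tnfrsf9 window had a STAT match, an AP-1 match 15 bases before the start and a pair of overlapping NF-kappaB consensus matches. The first Tnfrsf9 window (chr4:150919905-150920154), not printed, held 1 NFAT-type match 221 bases before the start, as many as Ctla4 and Tnfrsf4 held. Of 32851 windows of 250 bases in the promoter table, 18.6% held the NFAT-type motif, 7.02% STAT, 6.75% AP-1, 3.17% forkhead and 7.25% the NF-kappaB consensus. A match is a description of letters, and binding was not measured. Tnfrsf4 and Tnfrsf18 lie near each other on chromosome 4 with 2 annotated genes between them, and their tumor-to-tumor correlation was 0.86.

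The first comparison asks how the members stood in tumors of mice that stayed obese. In DIO-HFD tumors Ctla4, Ccr8, Tnfrsf4 and Tnfrsf18 averaged between 2.64-fold and 3.16-fold lower than in CON-LFD tumors, while Il2ra, Ikzf2 and Tnfrsf9 differed by 1.26-fold or less. None of the 7 members passed limma's test at an adjusted p of 0.05 over all genes, a threshold that 0.00513% of all genes (1 gene) passed. At an unadjusted p of 0.05, 4 of 7 members were lower, against 5.89% of all genes. The median difference of the 7 members was -1.40, and that of all genes 0.03. In bulk tumor RNA, fewer cells of a type and less RNA per cell cannot be told apart.

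Ccr8, the chemokine receptor of tumor regulatory T cells, had a lowest, median and highest signal of 4.70, 5.92 and 7.04 in DIO-HFD tumors and of 6.38, 7.09 and 8.42 in CON-LFD tumors. The groups overlapped, but 5 of 6 DIO-HFD tumors were below every CON-LFD tumor. The difference was -1.40 ± 0.41 (SE, 95% interval -2.24 to -0.56), with an unadjusted p of 0.00213 and an adjusted p of 0.134 (limma). Its unadjusted p stayed below 0.05 when any single array of either group was left out.

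Tnfrsf18 (GITR) had 4.64, 7.19 and 8.39 as lowest, median and highest in DIO-HFD tumors, against 7.68, 8.73 and 9.12 in CON-LFD tumors. DIO-HFD tumors spread over a far wider range (SD 1.51 against 0.51 in CON-LFD), and 4 of 6 lay below all CON-LFD tumors. The difference was -1.66 ± 0.62 (95% interval -2.94 to -0.38, limma adjusted p = 0.235). Tnfrsf4 (OX40) had 5.07, 7.60 and 8.42 in DIO-HFD tumors, against 7.74, 8.87 and 9.57 in CON-LFD tumors. Here 3 of 6 DIO-HFD tumors lay below the CON-LFD range, and the difference was -1.50 ± 0.57 (95% interval -2.67 to -0.33, limma adjusted p = 0.239). Ctla4, the inhibitory receptor, had 5.76, 7.74 and 8.69 in DIO-HFD tumors, against 8.23, 8.80 and 9.60 in CON-LFD tumors. The difference was -1.41 ± 0.59 (95% interval -2.62 to -0.20, limma adjusted p = 0.284), with 4 of 6 DIO-HFD tumors below all CON-LFD tumors. Single tumors mattered for these 3 genes. DIO-HFD replicate 3 was the lowest tumor of its group for Tnfrsf4 (5.07) and Tnfrsf18 (4.64), and without it their unadjusted p values were 0.0542 and 0.0501. The unadjusted p of Ctla4 was 0.0720 when the same tumor was left out, 0.0768 when DIO-HFD replicate 1 was, and 0.0536 when CON-LFD replicate 5 was. Without both DIO-HFD arrays on which Cd8a was not above background, the differences were -0.99 for Ccr8, -0.81 for Tnfrsf4, -0.77 for Tnfrsf18 and -0.63 for Ctla4, and 1 of 7 members, Ccr8, had an unadjusted p below 0.05. The share of all genes at that p is not given for this setting, so the count is not read as a result about the members.

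The other members showed no such shift. Il2ra (CD25) had 5.78, 6.71 and 7.10 in DIO-HFD tumors, against 6.16, 6.80 and 7.38 in CON-LFD tumors, a difference of -0.13 with a 95% interval of -0.69 to 0.44. Ikzf2 (Helios) had 10.39, 11.02 and 11.95 in DIO-HFD tumors, against 10.40, 11.14 and 11.54 in CON-LFD tumors, a difference of 0.12 with an interval of -0.40 to 0.65. Tnfrsf9 (4-1BB) had 10.55, 11.90 and 13.31 in DIO-HFD tumors, against 10.58, 11.48 and 12.74 in CON-LFD tumors, a difference of 0.34 with an interval of -0.51 to 1.19. The ranges of all 3 genes overlapped almost fully, and the intervals bound how far the means could differ without excluding a small change.

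Cd8a and Cd3e were lower by more than any member and Cd4 by less than those 4 genes, without passing at the adjusted threshold. Cd8a differed by -3.01 ± 0.76 (limma adjusted p = 0.0965), Cd3e by -2.45 ± 0.80 (adjusted p = 0.174) and Cd4 by -0.95 ± 0.46 (adjusted p = 0.372). Without the DIO-HFD arrays on which Cd8a was not above background, Cd8a stood at -2.25, Cd3e at -1.56 and Cd4 at -0.55. The unadjusted limma p was then 0.0693 for Cd3e and 0.255 for Cd4. Of 15 measured T cell identity genes, 14 were lower at an unadjusted p of 0.05, against 5.89% of all genes, and none passed after adjustment. The summed level of that list, as a mean per tumor, ran from 5.40 to 6.78 in DIO-HFD and from 6.63 to 7.95 in CON-LFD. Of 15 cytotoxic and natural killer cell genes, 7 were lower at an unadjusted p of 0.05, with a median difference of -0.95. Of 11 macrophage genes, 7 were lower at an unadjusted p of 0.05, with a median difference of -0.77. B cell genes were near background in both groups, with a list mean of 4.12 to 4.81 in DIO-HFD and 4.26 to 5.00 in CON-LFD, and 1 of 10 was lower at an unadjusted p of 0.05, a share near that of all genes. The skeletal muscle list ranged from 4.70 to 9.32 in DIO-HFD and from 4.53 to 14.43 in CON-LFD, with all 25 genes lower on average in DIO-HFD (median difference -1.57) and none at an unadjusted p of 0.05. Without the 8 arrays of all groups with a muscle list mean above 9, the differences were -0.85 for Ctla4, -1.16 for Tnfrsf4, -1.01 for Ccr8 and -1.42 for Tnfrsf18, the unadjusted p of Ctla4 was 0.113 and that of Tnfrsf4 0.0804, and Ccr8 and Tnfrsf18 stayed below 0.05. The part of other cell types in the member differences was not tested.

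**Figure D4:**
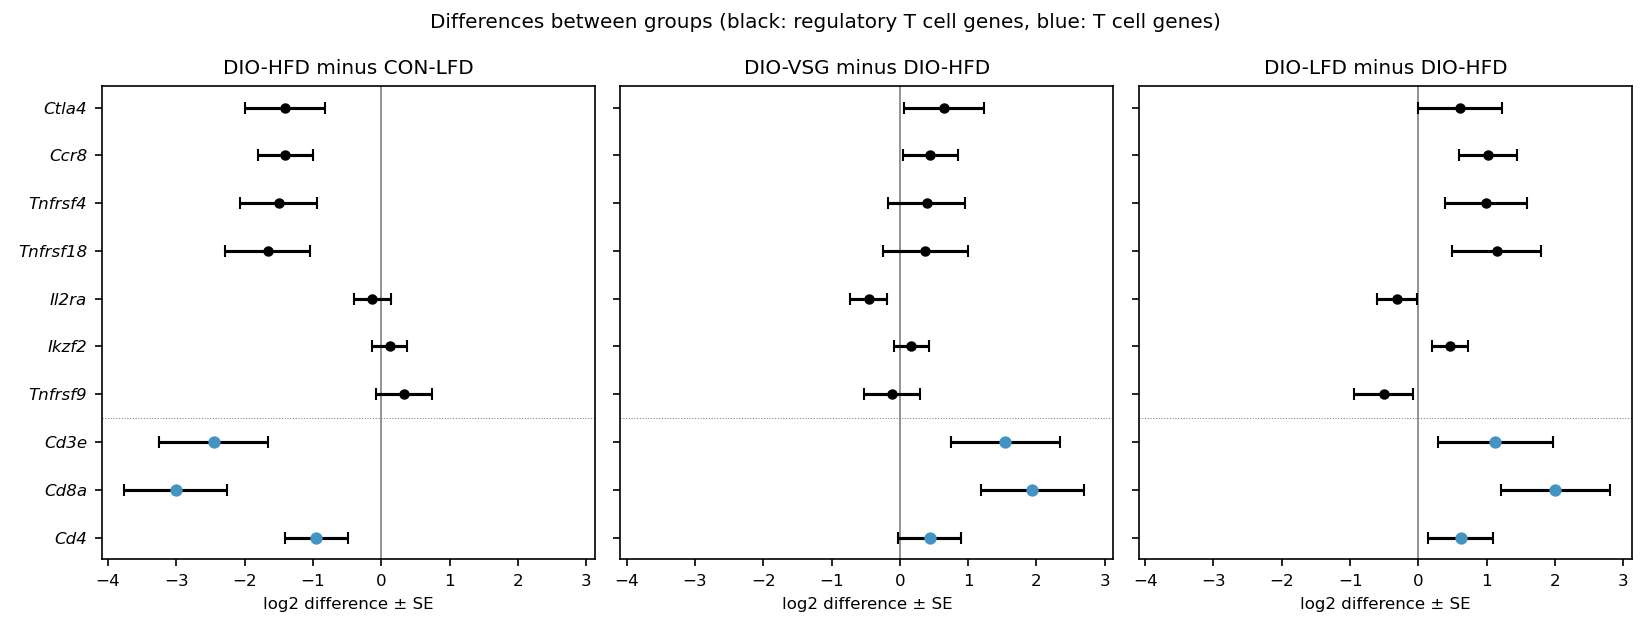
Log2 difference ± SE from limma for each member (black) and for Cd3e, Cd8a and Cd4 (blue), in DIO-HFD minus CON-LFD, DIO-VSG minus DIO-HFD and DIO-LFD minus DIO-HFD. Ctla4, Ccr8, Tnfrsf4 and Tnfrsf18 lie between -1.66 and -1.40 in the first panel and between 0.37 and 1.15 in the other panels, where Cd8a lies at 1.94 and 2.01.

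The next comparisons ask where the members stood after weight loss by surgery or diet. In DIO-VSG tumors Ctla4, Ccr8, Tnfrsf4 and Tnfrsf18 averaged higher than in DIO-HFD tumors by 0.37 to 0.65, each within the spread between tumors. None of the 7 members passed at the adjusted threshold, which 0% of all genes passed (1089 genes, 5.58%, had an unadjusted p below 0.05), and 0 of 7 members had an unadjusted p below 0.05. The median member difference was 0.37, and that of all genes -0.01. Ctla4 had 6.66, 8.43 and 8.59 as lowest, median and highest in DIO-VSG tumors, against 5.76, 7.74 and 8.69 in DIO-HFD tumors. The DIO-VSG tumors lay wholly within the DIO-HFD range, and the difference was 0.65 ± 0.59 (95% interval -0.57 to 1.86, limma adjusted p = 0.949). Ccr8 had 5.67, 6.38 and 7.15 in DIO-VSG tumors, against 4.70, 5.92 and 7.04 in DIO-HFD tumors, a difference of 0.45 ± 0.41 (adjusted p = 0.949). Tnfrsf4 had 6.97, 7.72 and 8.63 in DIO-VSG tumors, against 5.07, 7.60 and 8.42 in DIO-HFD tumors, a difference of 0.39 ± 0.57 (adjusted p = 0.968). For both genes the lower end of the range was higher in DIO-VSG, while the upper ends lay close together. Tnfrsf18 had 6.44, 7.48 and 7.87 in DIO-VSG tumors, against 4.64, 7.19 and 8.39 in DIO-HFD tumors, a difference of 0.37 ± 0.62 (adjusted p = 0.975). Il2ra was lower on average, with 5.72, 6.21 and 6.81 in DIO-VSG tumors against 5.78, 6.71 and 7.10 in DIO-HFD tumors, a difference of -0.46 ± 0.27 (adjusted p = 0.901). Ikzf2 and Tnfrsf9 differed by 0.17 and -0.11. Without the DIO-HFD arrays on which Cd8a was not above background, Ctla4, Tnfrsf4 and Tnfrsf18 stood at -0.13, -0.30 and -0.52 in this comparison, so their direction turned. Cd8a, measured in the same tumors, differed by 1.94 ± 0.76 and Cd3e by 1.54 ± 0.80 (adjusted p = 0.874 and 0.883). DIO-VSG replicate 5 had the highest Cd3e of its group, at 11.66 with the next tumor at 9.28, and also the highest Ccr8 (7.15), Tnfrsf4 (8.63) and Tnfrsf18 (7.87).

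In DIO-LFD tumors the same 4 genes were higher than in DIO-HFD tumors by 0.61 to 1.15 on average, again with none of 7 members past the adjusted threshold, which 0% of genes passed. At an unadjusted p of 0.05, 1 of 7 members differed, against 6.17% of all genes (1204 genes). The median member difference was 0.61, against -0.03 for all genes. Ccr8 had 5.64, 6.93, 7.46, 6.66 and 7.74 in the 5 DIO-LFD tumors, against a lowest, median and highest of 4.70, 5.92 and 7.04 in DIO-HFD tumors. Its difference was 1.02 ± 0.43 (95% interval 0.14 to 1.90, unadjusted p = 0.0252, limma adjusted p = 0.751). That p missed 0.05 when 1 of several single tumors was left out: it was 0.0840 and 0.0677 for replicates 5 and 3 of DIO-LFD, and 0.0752 and 0.0523 for replicates 1 and 3 of DIO-HFD. Tnfrsf18 had 5.85, 7.06, 8.59, 8.37 and 10.30 in DIO-LFD tumors, against 4.64, 7.19 and 8.39 as lowest, median and highest in DIO-HFD tumors, a difference of 1.15 ± 0.65 (adjusted p = 0.831). Tnfrsf4 had 6.15, 7.37, 9.27, 8.51 and 10.11 in DIO-LFD tumors, against 5.07, 7.60 and 8.42 in DIO-HFD tumors, a difference of 0.99 ± 0.59 (adjusted p = 0.832). Ctla4 had 5.27, 7.92, 8.79, 8.59 and 9.57 in DIO-LFD tumors, against 5.76, 7.74 and 8.69 in DIO-HFD tumors, a difference of 0.61 ± 0.61 (adjusted p = 0.909). DIO-LFD replicates 3 and 5 lay above every DIO-HFD tumor for all 4 genes, and replicate 1 was the lowest DIO-LFD tumor for each. In the same comparison Cd8a differed by 2.01 and Cd3e by 1.13, all 15 T cell identity genes were higher (median difference 0.54, 1 at an unadjusted p of 0.05), and so were all 25 skeletal muscle genes (median 2.78, none at an unadjusted p of 0.05). Without the muscle-rich arrays the differences were 0.61 for Ctla4, 1.09 for Ccr8, 0.92 for Tnfrsf4 and 0.68 for Tnfrsf18. Without the DIO-HFD arrays on which Cd8a was not above background, no member had an unadjusted p below 0.05 and Ctla4 stood at -0.16. Cd8a stood at 1.25 and Cd3e at 0.23 in that setting. Its share of all genes is not given, so the count is not read as a result about the members. The part of other cell types in these differences was not tested.

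DIO-LFD replicate 1 is 1 of the 2 tumors with disagreeing labels, and it was also the lowest of its group for Il2ra, Tnfrsf9, Cd3e, Cd8a and Cd4, and the highest for Ikzf2. Without both such tumors the differences between DIO-LFD and DIO-HFD were 1.30 for Ctla4, 1.33 for Ccr8, 1.52 for Tnfrsf4 and 1.69 for Tnfrsf18, and their limma adjusted p values were 0.493, 0.431, 0.492 and 0.50. All 4 had an unadjusted p below 0.05 there and also with groups as the source names give them, so the count of members was 4 of 7 in place of 1 of 7. Il2ra, Ikzf2 and Tnfrsf9, at -0.31, 0.46 and -0.51 with all tumors, were then at -0.16, 0.36 and -0.20. For DIO-VSG against DIO-HFD the differences without them were 0.92 for Ctla4, 0.58 for Ccr8, 0.54 for Tnfrsf4, 0.28 for Tnfrsf18 and -0.58 for Il2ra, and 1 of 7 members, Il2ra, had an unadjusted p below 0.05. With source-name groups Ctla4 stood at 1.23 in that comparison and was the 1 member with an unadjusted p below 0.05 (limma adjusted p = 0.640). Shares of all genes at an unadjusted p of 0.05 are not given for these settings. The counts of members under them are therefore not read as a result about the members. With groups as the source names give them, DIO-HFD minus CON-LFD was -1.72 for Ctla4, -1.43 for Ccr8, -1.66 for Tnfrsf4 and -1.81 for Tnfrsf18, and no member passed (smallest adjusted p 0.0626, for Ccr8). Cd8a did pass there, at -3.11 with an adjusted p of 0.0254. Which label is right was not tested.

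The remaining pairs of groups gave no member past the adjusted threshold, and 0% of genes passed in each. Relative to CON-LFD, 3 of 7 members of DIO-VSG tumors were lower at an unadjusted p of 0.05, against 6.68% of all genes in either direction. These were Ccr8 (difference -0.95, limma adjusted p = 0.688), Il2ra (-0.59, limma adjusted p = 0.738) and Tnfrsf18 (-1.29, limma adjusted p = 0.748). Each of these calls was lost when 1 of several single arrays was left out: the unadjusted p of Ccr8 was 0.0850 without CON-LFD replicate 5, that of Il2ra 0.110 without CON-LFD replicate 2 and that of Tnfrsf18 0.10 without DIO-VSG replicate 2. Without the 2 tumors with disagreeing labels the differences were -0.83, -0.71 and -1.38, and with source-name groups the unadjusted p of Ccr8 was 0.0587. Tnfrsf4 and Ctla4 stood at -1.11 and -0.77. DIO-LFD minus CON-LFD had 1 of 7 members at an unadjusted p of 0.05, against 5.43% of all genes: Ikzf2, with 11.98, 11.52, 11.39, 11.20 and 11.79 in DIO-LFD tumors, against a lowest, median and highest of 10.40, 11.14 and 11.54 in CON-LFD tumors (difference 0.59, adjusted p = 0.878). Without the 2 tumors with disagreeing labels that difference was 0.48 and its unadjusted p 0.111, and without CON-LFD replicate 1 its unadjusted p was 0.0990. DIO-VSG minus DIO-LFD had 0 of 7 members at an unadjusted p of 0.05, against 3.39% of all genes, and differences between -0.77 (Tnfrsf18) and 0.40 (Tnfrsf9). The comparisons share groups, so their values are not independent of each other. In order of group means, Ctla4, Ccr8, Tnfrsf4 and Tnfrsf18 were lowest in DIO-HFD and highest in CON-LFD. DIO-VSG lay between them for all 4 genes, and so did DIO-LFD, but no neighbours in that order differed at the adjusted threshold. The order also rests on DIO-HFD replicates 1 and 3. Without them DIO-VSG minus DIO-HFD was -0.13 for Ctla4, -0.30 for Tnfrsf4 and -0.52 for Tnfrsf18, and DIO-LFD minus DIO-HFD was -0.16 for Ctla4.

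Each member was also taken relative to Cd8a and to Cd3e on the same array, to ask whether it differed unequally to these T cell genes. In DIO-HFD tumors all 7 members were higher relative to Cd8a than in CON-LFD tumors, but by less than most genes for 5 of them. The relative difference was 1.59 for Ctla4, 1.60 for Ccr8, 1.51 for Tnfrsf4 and 1.35 for Tnfrsf18, against a median of 3.03 over all genes, since the same Cd8a signal is subtracted from each. Only 0.954%, 0.99%, 0.81% and 0.451% of genes lay nearer to 0 than these 4. Il2ra (2.88), Ikzf2 (3.13) and Tnfrsf9 (3.34) lay nearer to that median, with 29.8%, 63.3% and 85.3% of genes nearer to 0. These 3 passed the adjusted threshold, and so did 98.8% of all genes, so the count of 3 of 7 is not a result about the members. Ctla4 minus Cd8a had -0.32, 1.93 and 2.97 as lowest, median and highest in DIO-HFD tumors, against -1.83, -0.26 and 2.51 in CON-LFD tumors. Tnfrsf9 minus Cd8a had 4.13, 5.94 and 8.62 in DIO-HFD tumors, against 0.86, 3.10 and 4.19 in CON-LFD tumors. Ctla4 overlapped widely between the groups on this scale, and Tnfrsf9 overlapped only at the edge. The highest values of Tnfrsf9 minus Cd8a, 8.62 and 6.88, came from DIO-HFD replicates 3 and 1, where Cd8a was not above background. Without these 2 arrays the DIO-HFD values of Tnfrsf9 minus Cd8a ran from 4.13 to 6.22, against 0.86 to 4.19 in CON-LFD tumors.

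**Figure D5:**
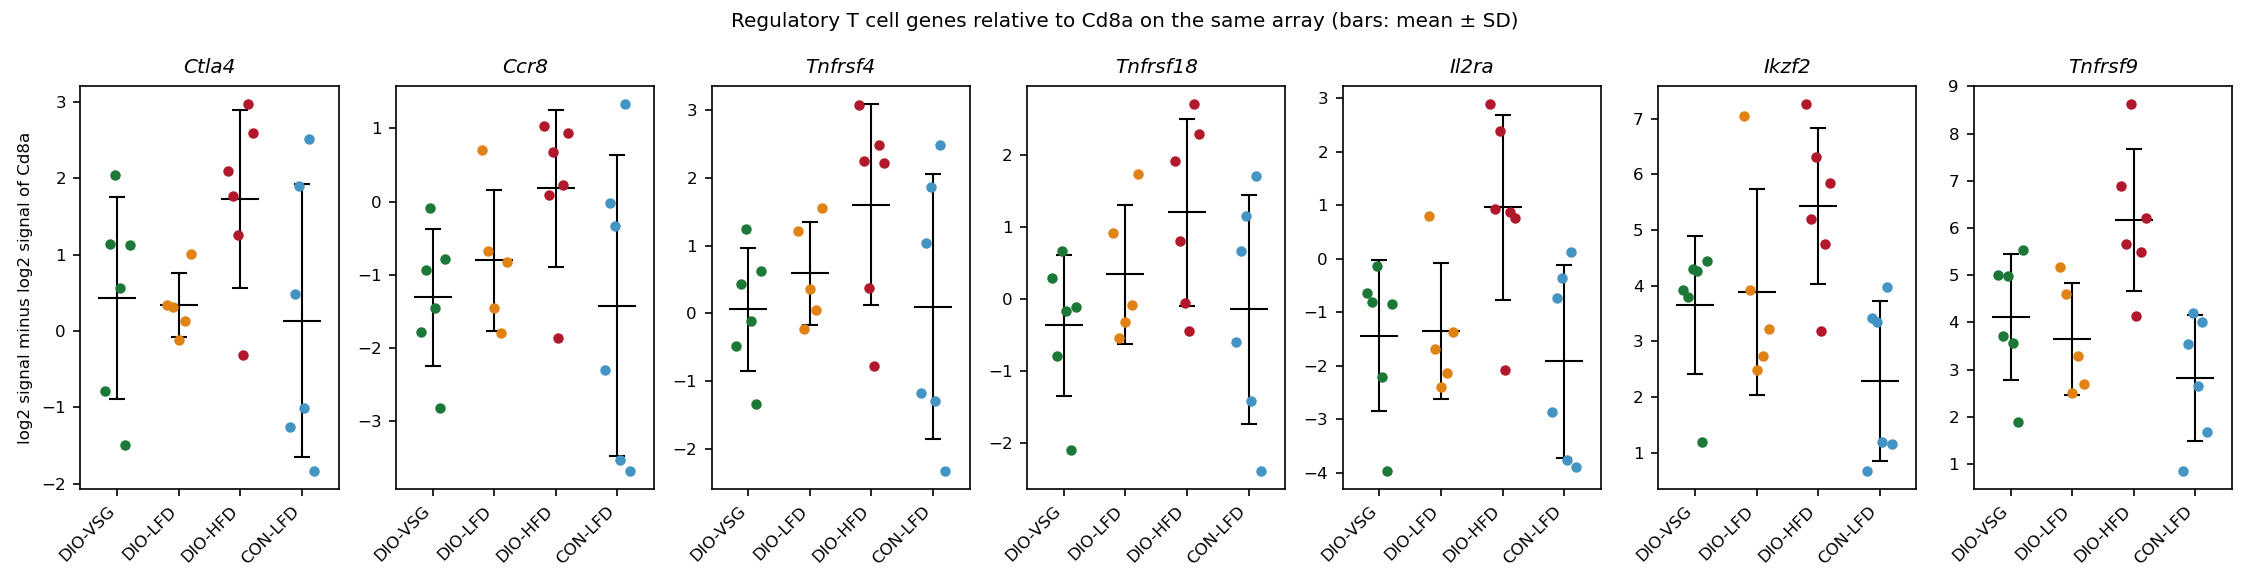
Log2 signal of each member minus that of Cd8a on the same array, by group on the horizontal axis, with 1 point per tumor and bars at the mean ± SD (n = 6, 5, 6 and 6). DIO-HFD has the highest mean in each panel, and Tnfrsf9 minus Cd8a runs from 4.13 to 8.62 in DIO-HFD and from 0.86 to 4.19 in CON-LFD.

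Since every relative value holds the same Cd8a signal, limma's sharing of variance over genes is not well suited to it, and an exact two-sided permutation test over tumors was run for each member. Its smallest possible p is 0.0022 for 6 against 6 tumors, and 42 relative values were computed. For DIO-HFD against CON-LFD it gave p = 0.00433 for Tnfrsf9, 0.00866 for Ikzf2 and 0.0281 for Il2ra, and p = 0.0974, 0.108, 0.158 and 0.136 for Ctla4, Ccr8, Tnfrsf4 and Tnfrsf18 (exact permutation, unadjusted). The permuted values still hold the Cd8a signal, and the exact test was not run over all genes. By limma, 19266 of 19504 genes had an unadjusted p below 0.05 on this scale. Small p values here are therefore not a result about the members. Without the 2 arrays on which Cd8a was not above background, the exact permutation p was 0.0190 for Tnfrsf9, 0.0381 for Ikzf2 and 0.119 for Il2ra, with relative differences of 2.55, 2.45 and 2.04, and it ran from 0.167 to 0.267 for the other 4 (smallest possible 0.0048). The 95% intervals of the relative differences, from ordinary per-gene variances, ran from -0.03 to 3.24 for Ccr8 and from -0.17 to 3.18 for Tnfrsf4. Against Cd3e the values were smaller: 1.04 for Ctla4, 1.05 for Ccr8, 0.95 for Tnfrsf4 and 0.79 for Tnfrsf18, against a median of 2.48 over all genes. On this scale 3 of 7 members passed (Il2ra, Ikzf2 and Tnfrsf9), as did 94.2% of all genes. Without DIO-HFD replicate 3, whose Cd3e was 5.08, the member count was 0, and the share of all genes is not given there. Without both arrays on which Cd8a was not above background it was also 0, and 0 of all genes passed. Neither drop is therefore a result about the members. The exact permutation p values of the other 4 ran from 0.162 to 0.251.

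Relative to Cd8a, all 7 members were lower in DIO-VSG than in DIO-HFD tumors, by -2.40 (Il2ra) to -1.29 (Ctla4), with a member median of -1.57 against -1.95 over all genes. None of the 7 passed the adjusted threshold, against 0.00513% of all genes, although 16252 genes had an unadjusted p below 0.05. The exact permutation p was 0.0303 for Il2ra and for Tnfrsf9, 0.0346 for Ccr8, 0.0390 for Ikzf2, 0.0476 for Tnfrsf18, 0.0584 for Tnfrsf4 and 0.104 for Ctla4. DIO-LFD minus DIO-HFD gave -1.39 for Ctla4, -0.99 for Ccr8, -1.02 for Tnfrsf4 and -0.86 for Tnfrsf18, and -2.32, -1.54 and -2.51 for Il2ra, Ikzf2 and Tnfrsf9, against a median of -2.03 over all genes. The exact permutation p was 0.0195 for Tnfrsf9, 0.0346 for Il2ra and 0.0368 for Ctla4, and it ran from 0.145 to 0.238 for the other 4 members (smallest possible 0.0043). No member passed there, where 0% of genes passed, although 15865 of 19504 genes had an unadjusted limma p below 0.05. The exact p values below 0.05 are therefore not a result about the members. Relative to Cd3e none of the 7 members passed in either comparison, with 0% of all genes passing in both. In DIO-VSG the relative differences ran from -2.00 (Il2ra) to -0.90 (Ctla4), and in DIO-LFD Ccr8, Tnfrsf4 and Tnfrsf18 stood at -0.11, -0.14 and 0.02. A gene that differed as Cd3e did would lie at 0, but equality was not tested. The spread was wide, with an SD of Ccr8 minus Cd3e of 1.42 in both DIO-LFD and DIO-HFD tumors. Without muscle-rich arrays Ccr8 stood at 0.46 and Tnfrsf4 at 0.28. Without the arrays on which Cd8a was not above background, no member had an exact permutation p below 0.05 relative to Cd8a or Cd3e in DIO-VSG or DIO-LFD against DIO-HFD.

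Genes that act with the members were described from lists. Of the 8 ligands, all measured, none differed between DIO-HFD and CON-LFD at an unadjusted p of 0.05, where 2617 of 19505 genes did. Cd86, which binds CTLA-4, averaged 9.21 in DIO-HFD and 9.92 in CON-LFD tumors, and Cd80 averaged 9.98 in DIO-HFD and 10.15 in CON-LFD tumors. The CCR8 ligand Ccl8 averaged 12.78 in DIO-HFD and 13.64 in CON-LFD tumors, and in DIO-VSG tumors it averaged 11.53, against 12.78 in DIO-HFD tumors (difference -1.25, unadjusted p = 0.029, limma adjusted p = 0.883). Tnfsf18, the GITR ligand, averaged 4.96 in DIO-HFD and 5.69 in CON-LFD tumors. Tnfsf4 and Tnfsf9, the OX40 and 4-1BB ligands, differed by 0.15 and 0.31 between these groups, and Il2 was below the low-signal limit in both (2.46 in DIO-HFD and 2.52 in CON-LFD). Of 4 chemokines that attract regulatory T cells, 2 were lower in DIO-VSG than in DIO-HFD tumors at an unadjusted p of 0.05. In that comparison 5.58% of all genes reached it in either direction. The 2 were Ccl22 (7.20 in DIO-VSG and 8.87 in DIO-HFD, adjusted p = 0.86) and Ccl20 (3.98 in DIO-VSG and 4.67 in DIO-HFD, both below the low-signal limit). Ccl17 differed by -1.15 in the same comparison (adjusted p = 0.883). None of the 4 reached an unadjusted p of 0.05 in DIO-LFD against DIO-HFD. In DIO-HFD against CON-LFD 1 of the 4 was higher at that p, where 2617 of 19505 genes differed in either direction.

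Among 20 measured further genes of regulatory T cells, 7 were lower and 1 was higher in DIO-HFD than in CON-LFD tumors at an unadjusted p of 0.05, where 5.89% of all genes were lower, and none passed after adjustment. They included the inhibitory receptors Lag3 (4.75 in DIO-HFD, just below the low-signal limit, and 6.25 in CON-LFD, adjusted p = 0.147) and Tigit (6.43 in DIO-HFD and 7.33 in CON-LFD, adjusted p = 0.142), the transcription factor Batf (difference -0.97) and Ebi3 (-1.34), a subunit of IL-35. The list median was -0.26. In DIO-VSG against DIO-HFD 0 were lower and 3 higher at an unadjusted p of 0.05, against 5.58% of all genes in either direction. These were Il10 (1.02), Lag3 (1.09, against the low DIO-HFD mean) and Tigit (0.60). In DIO-LFD against DIO-HFD 1 was lower, Nt5e (-1.17), which makes adenosine, and 2 were higher, Tigit (0.94) and Lag3 (1.15), where 6.17% of all genes differed in either direction. Of 17 regulators upstream of Foxp3, 8 were lower and 0 higher in DIO-HFD than in CON-LFD tumors at an unadjusted p of 0.05, with Nfatc2 at -1.36 (adjusted p = 0.0772), Nr4a3 at -1.27 and the TGF-beta receptor Tgfbr2 at -0.82. In DIO-VSG 1 of these 17 was higher than in DIO-HFD (Nr4a1, 0.72), and in DIO-LFD 2 were (Satb1 at 0.85 and Nr4a1 at 0.61). Of 8 genes of IL-2 receptor signaling, 2 were lower in DIO-HFD than in CON-LFD tumors, the receptor chain Il2rb (-2.03, adjusted p = 0.122) and Socs1 (-0.65). Of 10 adaptors of TNF receptor signaling, 1 was lower in DIO-HFD, the kinase Map3k14 (-0.63, adjusted p = 0.104), and 1 of 10 is near the share of all genes. Neither of these 2 lists had a gene at an unadjusted p of 0.05 in DIO-VSG or DIO-LFD against DIO-HFD.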

How the data were processed

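Total RNA of 23 E0771 tumors was measured on Mouse Clariom S HT arrays. The authors had processed the arrays in the Transcriptome Analysis Console by signal space transformation, then robust multichip averaging, and deposited the resulting log2 values. These ran from 1.36 to 18.69 and were not rescaled. Of 22206 probe sets, 19572 had 1 symbol in the platform annotation, and 2634 were unnamed here. Symbols were checked against a RefSeq gene table of GRCm38.p6. For the 55 genes with more than 1 probe set, the probe set of highest mean stood for the gene, giving 19505 genes. Precision is limited by how many arrays each group holds.

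Groups came from the sample titles. Each gene was tested with limma 3.58.1 in R 4.3.3 (lmFit with 1 mean per group on all 23 arrays, then eBayes, two-sided), and p values were adjusted by Benjamini-Hochberg over all named genes, with 0.05 as threshold. The methods of the study give no single-gene test for the arrays. For values relative to Cd8a or Cd3e, that gene's log2 signal was subtracted on each array and the same test was run on 19504 genes. Because all these values share 1 denominator, the prior degrees of freedom were infinite, so intervals from ordinary per-gene variances and exact permutation tests over tumors were added after the data had been seen. Correlations were computed on deviations from group means. The test script was checked on simulated data.

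The members and the lists were chosen with earlier results of these data known. The genes named were all members, Cd3e, Cd8a and Cd4, the 3 genes most correlated with each member, the ligands, and, per further list, at most 4 genes by smallest p plus at most 2 by size of difference. Krt8, Vim, Epcam and Krt14 were named from the tumor marker list after their values were seen. The lists name 224 genes, of which 207 had a probe set, and the others are not analysed here.

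Alternatives were a filter on low signal, only the arrays of the groups compared, leaving out or regrouping the 2 arrays with disagreeing labels, median centering, quantile normalization, a trended robust variance, array weights, the replicate number as a block, the muscle list as a covariate, leaving out muscle-rich arrays, averaged probe sets, another denominator and leaving out each array in turn. Correlations without the 2 arrays with disagreeing labels, and all comparisons without the 2 arrays on which Cd8a was not above background, were added after seeing the data. Replicate numbers were checked for pairing: same-numbered tumors of different groups had deviations with a mean correlation of 0.02 over 33 pairs, and 9 of the 33 were above 0.1, so numbers were not taken as pairs. Figures were drawn with matplotlib 3.10.9 in python 3.11.15.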

Additional observations from a re-analysis of the deposited data

Results flagged for a closer look

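In 40 sets of tumors (10 genes in 4 groups), the gap between the most extreme tumor and its neighbour was set against Dixon's limit, which chance passes in about 1 of 20 sets, and 2 passed. Cd3e was 11.66 in DIO-VSG replicate 5, with the next tumor of its group at 9.28. Cd4 was 6.25 in DIO-HFD replicate 3, with the next tumor at 7.73. In that DIO-HFD tumor Tnfrsf4 and Tnfrsf18 were also the lowest of their group, at 5.07 and 4.64, while Tnfrsf9 was the highest of all 23 tumors, at 13.31. No such gap was found for any of the 7 regulatory T cell genes.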

How the results depend on the processing

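The DIO-VSG, DIO-LFD, DIO-HFD and CON-LFD groups hold 5 or 6 tumors each, and this number limits what can be shown. None of the 7 members passed the adjusted threshold in any of the 147 settings of the absolute comparisons. At an unadjusted p of 0.05, every member call except that of Ccr8 in DIO-HFD minus CON-LFD was lost on leaving out 1 of some single arrays. The arrays on which Cd8a was not above background (DIO-HFD replicates 1 and 3) were left out as a setting added after seeing the data. The 4 members at an unadjusted p of 0.05 in DIO-HFD minus CON-LFD were then 1 (Ccr8), with a median member difference of -0.63. The share of all genes at that p is not given for this setting, so the change in count is not read as a result about the members. The count relative to Cd3e in that comparison was then 0 in place of 3. In that setting 0 of all genes passed relative to Cd3e, so the drop is not a result about the members. Relative to Cd8a the count was 3, and the share of all genes is not given for it. Array weights were not run for relative values, because their estimate did not converge. Values relative to Cd8a moved most. For DIO-HFD minus CON-LFD the count of members passing was 3, and it was 5 without the 2 tumors with disagreeing labels, 6 with the muscle list as a covariate and 7 without muscle-rich arrays. For DIO-VSG minus DIO-HFD it was 0, and it was 3 with only those groups fitted, without the 2 tumors, after quantile normalization or with the muscle covariate, 4 with source-name groups and 2 with the replicate block. For DIO-LFD minus DIO-HFD it was 0, and it was 3 without the 2 tumors or with source-name groups, 2 with the replicate block and 4 with the muscle covariate. In each of these settings most of the 19504 genes passed with them (15046 in the setting with the fewest). The cause was not tested.

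The median member difference of DIO-LFD minus DIO-HFD was 1.30 without the 2 tumors. Leaving out 1 array at a time, the median ranged from -1.64 to -1.05 in DIO-HFD minus CON-LFD, 0.13 to 0.60 in DIO-VSG minus DIO-HFD, 0.41 to 1.30 in DIO-LFD minus DIO-HFD (highest without DIO-LFD replicate 1), -0.89 to -0.61 in DIO-VSG minus CON-LFD, -0.66 to 0.02 in DIO-LFD minus CON-LFD and -0.66 to -0.14 in DIO-VSG minus DIO-LFD. Counts relative to Cd8a ranged from 3 to 6 in DIO-HFD minus CON-LFD (6 without CON-LFD replicate 3, CON-LFD replicate 5 or DIO-HFD replicate 4), 0 to 6 in DIO-VSG minus DIO-HFD (6 without DIO-HFD replicate 4, 3 without DIO-VSG replicate 3 or 6) and 0 to 3 in DIO-LFD minus DIO-HFD (3 without DIO-HFD replicate 4 or DIO-LFD replicate 1). Relative to Cd3e the first ranged from 0 to 3. Over all arrays, 98.8%, 0.00513% and 0% of genes passed relative to Cd8a in these comparisons, in that order. Relative to Cd3e, 94.2% of genes passed in the first. Shares of all genes without single arrays are not given here, so these ranges of counts are not a result about the members. With the replicate block, no member passed in any of the 6 absolute comparisons, and 3 passed relative to Cd3e in DIO-HFD minus CON-LFD.

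Some small differences changed sign, none of them called. Without the 2 tumors with disagreeing labels, DIO-LFD minus CON-LFD was 0.022 for Tnfrsf4, 0.032 for Tnfrsf18, 0.14 for Tnfrsf9 and 0.032 for Cd4, DIO-VSG minus DIO-LFD was -0.38 for Ctla4 and -0.053 for Tnfrsf9, and Tnfrsf18 relative to Cd3e in DIO-LFD minus DIO-HFD was -0.016. That last value was -0.018 with the replicate block and -0.20 with the muscle covariate. With source-name groups, DIO-LFD minus DIO-HFD was 0.033 for Il2ra and 0.21 for Tnfrsf9, and Tnfrsf9 was 0.30 in DIO-LFD minus CON-LFD and -0.21 in DIO-VSG minus DIO-LFD. With array weights, Tnfrsf9 was 0.15 in DIO-VSG minus DIO-HFD and Ctla4 -0.011 in DIO-VSG minus DIO-LFD. Without muscle-rich arrays, Ikzf2 was -0.035 in DIO-VSG minus DIO-HFD, Ccr8 0.085 and Tnfrsf9 0.13 in DIO-LFD minus CON-LFD, Il2ra 0.0425 and Ctla4 -0.48 in DIO-VSG minus DIO-LFD, and Ccr8 0.46 and Tnfrsf4 0.28 relative to Cd3e in DIO-LFD minus DIO-HFD. Without the arrays on which Cd8a was not above background, DIO-VSG minus DIO-HFD was -0.13 for Ctla4, -0.30 for Tnfrsf4 and -0.52 for Tnfrsf18, DIO-LFD minus DIO-HFD was -0.16 for Ctla4, and relative to Cd3e DIO-LFD minus DIO-HFD was 0.37 for Ccr8, 0.15 for Ikzf2 and 0.062 for Tnfrsf4.

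Leaving out 1 array at a time also turned the sign of small differences. DIO-HFD minus CON-LFD ranged from -0.044 to 0.27 for Ikzf2 and from -0.25 to 0.046 for Il2ra. DIO-VSG minus DIO-HFD ranged from -0.015 to 0.34 for Ikzf2, -0.078 to 0.67 for Tnfrsf18, -0.051 to 0.62 for Tnfrsf4 and -0.37 to 0.18 for Tnfrsf9. DIO-LFD minus CON-LFD ranged from -0.68 to 0.032 for Cd4, -1.08 to 0.032 for Tnfrsf18, -0.97 to 0.022 for Tnfrsf4 and -0.39 to 0.14 for Tnfrsf9. DIO-VSG minus DIO-LFD ranged from -0.16 to 1.03 for Cd3e, -0.55 to 0.17 for Cd4, -0.76 to 0.24 for Cd8a, -0.66 to 0.42 for Ctla4 and -0.30 to 0.072 for Il2ra. Relative to Cd3e, DIO-LFD minus DIO-HFD ranged from -0.57 to 0.29 for Ccr8, -0.26 to 0.31 for Tnfrsf18 and -0.57 to 0.054 for Tnfrsf4. Of the single-gene values in the settings other than leaving out 1 array, 1273 kept direction and side of the adjusted threshold. Another 29 changed sign, 42 newly passed and 3 no longer passed. Of the 42, 1 was an absolute difference, that of Cd8a in DIO-HFD minus CON-LFD with source-name groups, and the others were relative to Cd8a. When 1 array was left out 1106 kept both, 43 changed sign, 28 newly passed and 3 no longer passed.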
